A study of Rattus norvegicus with 11 samples.

Results

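The genes described here are enzymes that make, interconvert or release sex steroids, and one of their receptors, in rat liver: Hsd17b2, Cyp17a1, Srd5a1, Hsd17b11, Hsd17b12, Sts and Esr1. They were chosen by name, with earlier results of these arrays known, and each gene was taken from the probe sets that carry its symbol alone in the platform annotation. Of the 7 genes, 6 had such a probe set, 1 each, among 20832 probe sets with 1 gene symbol and 31099 probe sets in all. Srd5a1 was not analysed here. The study put liver RNA of 11 Wistar rats on Affymetrix arrays, 1 animal per array: 3 controls (animals 1, 2 and 9) and 8 animals given the high dose of mequindox (animals 2, 3, 4, 5, 6, 8, 10 and 11), a quinoxaline antibacterial for livestock. All were of week 9 except high-dosed animal 8, of week 10. The dose by mass, the duration of treatment and the sex of the animals are not stated in the labels. Both groups had been picked for arrays with knowledge of metabolite profiles and blood chemistry.

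The liver clears circulating sex steroids and bile acid precursors. Hydroxysteroid dehydrogenases switch a steroid between its active alcohol and its less active ketone, sulfotransferases and glucuronosyltransferases make water-soluble conjugates that leave in bile and urine, and steroid sulfatase can return a sulfate to the free steroid. Estrogen acts on hepatocytes mainly through the nuclear receptor ESR1. The hydroxysteroid dehydrogenase families are also old lipid enzymes, and several of their members act mostly on fatty acids or retinoids.

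The values were the authors' deposited probe set intensities on a linear scale. Differences are given as high-dosed minus control on log2(intensity + 55.26), where the pseudocount is the 20th percentile of all values, so the change of a dim gene is understated. The fit was made in limma over 10714 genes, each represented by its strongest probe set above a signal filter at the 40th percentile. For the 7 genes this contrast was known when they were chosen, so their differences are descriptions with a standard error, and the calls of the fit for them are given once, as a count beside the background, and support nothing, whereas other genes of the pathway are given with the adjusted p of that fit. Tests compare single animals. Across the arrays the median intensity ran from 149.02 in high-dosed animal 11 to 186.57 in high-dosed animal 6. High-dosed animals 8 and 10 came next to the lowest, at 149.33 and 153.02. The controls ran from 162.09 to 176.4. Liver identity was clear from the 11 measured hepatocyte markers, all of them above the filter, with albumin at 33948 in controls and 33976 in high-dosed animals. Of 10 measured markers of adrenal cortex or gonad, 9 lay under the filter, among them Star, Cyp11a1, Cyp21a1, Cyp11b1 and Cyp19a1. Fewer cells of a type and less RNA per cell cannot be told apart in whole-liver RNA.

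Hsd17b2 encodes the dehydrogenase that oxidises estradiol to estrone and testosterone to androstenedione. Its intensity was 2599.71, 2743 and 3090.1 in control animals 1, 2 and 9. In the high-dosed animals it was 14947 in animal 2, 10208.5 in animal 3, 13691 in animal 4, 15958 in animal 5, 15761 in animal 6, 10861 in animal 8, 5228 in animal 10 and 12926 in animal 11. Every high-dosed animal stood above every control, and the lowest of them, animal 10, stood 1.69-fold above the highest control. The means were 2811 ± 252 (SD, n = 3) and 12447 ± 3605 (SD, n = 8), a difference of 2.06 ± 0.27 (SE) or 4.16-fold on the log2 scale with the pseudocount. Among all genes tested 5 had a larger rise. Without high-dosed animal 10 the difference was 2.22, and over all alternatives it ran from 2.00 to 2.29.

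Cyp17a1 encodes the hydroxylase and lyase that turns progestins into androgen precursors. Its intensity was 213.6, 151 and 165 in control animals 1, 2 and 9, low but above the filter on average. The high-dosed animals did not form one level: animals 3, 5 and 4 stood at 403, 409 and 422, animals 11 and 2 at 527 and 533, animal 10 at 849, and animals 6 and 8 at 1878 and 1969.94. Again the groups did not overlap, and the highest high-dosed animal stood 4.89-fold above the lowest, against 3.05-fold for Hsd17b2. The difference was 1.74 ± 0.45 (SE), or 3.34-fold, with group means of 177 ± 32.8 (SD, n = 3) and 874 ± 664 (SD, n = 8). Animal 8, one of the top pair, was the animal of week 10. Without it the difference was 1.54, and without animal 6 it was 1.55.

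The rises of these 2 genes did not follow each other from animal to animal. Animal 10, lowest for Hsd17b2, was the third highest for Cyp17a1, and animal 8, highest for Cyp17a1, was the third lowest for Hsd17b2. Over the 8 high-dosed animals Pearson's r was -0.11 (exact two-sided permutation p = 0.815, adjusted p = 0.905 over 10 pairs of genes) and Spearman's rho -0.095 (exact permutation p = 0.84, adjusted p = 1). Without animals 3 and 10, the farthest from the Hsd17b2 median, r was -0.37.

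**Figure D1:**
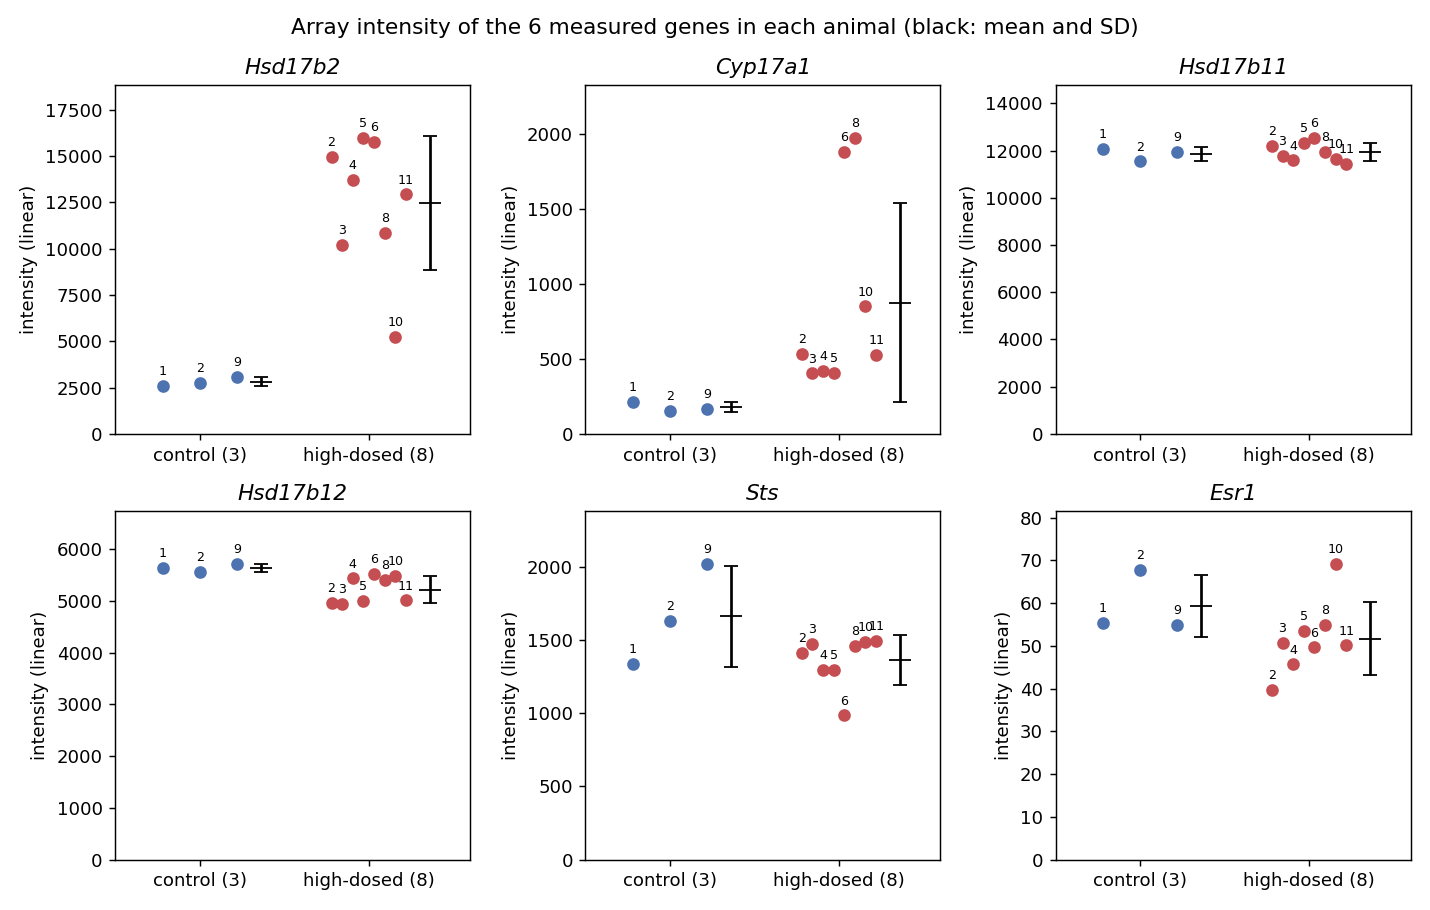
Array intensity (linear, each axis from 0) of the 6 measured genes, with 1 point per animal labelled by its number, controls in blue, high-dosed animals in red, and the group mean with its SD in black. Hsd17b2 and Cyp17a1 lay higher in all 8 high-dosed animals than in any control, Hsd17b12 lay lower in all 8, and the groups overlapped for Hsd17b11, Sts and Esr1.

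The other measured genes had much smaller differences. RefSeq's promoter table (build GRCr8) held 5 of the 7 genes, with no entry used for Hsd17b2 and Cyp17a1. The 250 bases before the start are shown for the 3 genes above the signal filter that had an entry. No stretch of Hsd17b2 or Cyp17a1 could be set beside them. Capitals mark matches, on either strand, to any of 7 motifs chosen with the sequences in view, and a match is a match of letters alone. The CCAAT box was searched by its name as letters. The GC box was searched as GGGCGG by the same rule. For the cAMP response element the letters were TGACGTCA in full. The nuclear receptor half-site was taken to be AGGTCA for this search. The TATA box was searched as TATAAA on both strands. The E-box was taken in its palindromic form CACGTG here. For the D-box, the element bound by Dbp and its relatives, the letters were TTATGTAA without any mismatch. Hsd17b11 lies at chr14:6016440-6016689 (plus strand), Hsd17b12 at chr3:100568899-100569148 (minus strand) and Sts at chrX:46102510-46102759 (plus strand).
Hsd17b11: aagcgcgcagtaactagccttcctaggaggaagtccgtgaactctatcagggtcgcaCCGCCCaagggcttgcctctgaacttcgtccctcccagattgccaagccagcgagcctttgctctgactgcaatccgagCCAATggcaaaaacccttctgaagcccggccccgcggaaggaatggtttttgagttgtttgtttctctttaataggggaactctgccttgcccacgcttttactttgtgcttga
Hsd17b12: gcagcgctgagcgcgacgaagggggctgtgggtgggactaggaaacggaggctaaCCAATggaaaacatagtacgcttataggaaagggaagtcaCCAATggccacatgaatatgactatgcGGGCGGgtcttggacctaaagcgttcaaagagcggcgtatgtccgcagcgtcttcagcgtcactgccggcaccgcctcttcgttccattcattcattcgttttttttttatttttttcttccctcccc
Sts: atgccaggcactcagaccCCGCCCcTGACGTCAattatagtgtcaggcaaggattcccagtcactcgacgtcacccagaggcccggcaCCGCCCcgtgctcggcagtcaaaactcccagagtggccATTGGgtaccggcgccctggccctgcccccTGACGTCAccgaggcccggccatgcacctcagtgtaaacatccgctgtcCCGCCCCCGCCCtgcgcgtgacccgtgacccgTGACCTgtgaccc
The Hsd17b11 stretch held 1 CCAAT box and 1 GC box, and the Hsd17b12 stretch 2 CCAAT boxes and 1 GC box. That of Sts held 4 GC boxes, of which 2 abut, 1 CCAAT box, 1 nuclear receptor half-site and 2 cAMP response elements, at 225 and 94 bases before the start. Over 33469 promoter stretches of this length, 34% held the CCAAT box, 30.5% the GC box, 14.1% the half-site and 1.59% the cAMP response element. The TATA box, the E-box and the D-box, found in 12.9%, 5.59% and 0.828% of all stretches, had no match in these 3.

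Hsd17b11, a lipid droplet enzyme that can oxidise androstanediol, had nearly the same intensity in every animal. It was 12079, 11539 and 11936 in control animals 1, 2 and 9 and ran from 11447 to 12524 in high-dosed animals, with a median of 11861. The groups overlapped, with 3 of 8 high-dosed animals above the highest control and 1 below the lowest. The difference was 0.0094 ± 0.035 (SE). The sign of this difference turned after median centring, at -0.012.

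Hsd17b12, which acts mainly as the ketoacyl reductase of fatty acid elongation, had 5631, 5564 and 5716 in control animals 1, 2 and 9. All 8 high-dosed animals were lower, in a pair of narrow bands: animals 3, 2, 5 and 11 stood at 4944, 4962, 5004 and 5009.79, and animals 8, 4, 10 and 6 at 5407, 5434.52, 5480.07 and 5518. The upper band lay just under the lowest control. The difference was -0.11 ± 0.048 (SE), a far smaller step than that of Hsd17b2 or Cyp17a1.

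Sts, the steroid sulfatase, had 1334, 1629 and 2018 in control animals 1, 2 and 9, so the controls themselves spread widely. The high-dosed animals ran from 984 (animal 6) to 1491 (animal 11) with a median of 1435. Of the 8, 3 lay below the lowest control and none above the highest, and the groups overlapped through control 1. The difference was -0.27 ± 0.13 (SE), and it moved to -0.12 without control 9 and to -0.41 without control 1.

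Esr1, the estrogen receptor, was the 1 measured gene under the signal filter, at 55.3, 67.7 and 54.9 in control animals 1, 2 and 9 and 39.7 to 69.2 in high-dosed animals, with a median of 50.4. Its probe set was too dim for a size of change to be read. Whether it was above background is unknown, since no detection calls were used here.

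Of the 5 genes above the filter, limma called 2 (Hsd17b2 and Cyp17a1), where 10.6% of all genes tested were called, and the groups did not overlap for 3 (with Hsd17b12), where the background was 12.1% (8.69% higher and 3.37% lower). As the genes were picked with this contrast known, nothing is read from those counts. The count was 1 without control 1, control 2 or control 9, or without high-dosed animals 8, 10 and 11 together, since Cyp17a1 was then not called; its difference in the last case was 1.495. The median difference of the 5 was 0.0094, beside 0.017 over all genes.

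Within the high-dosed group, no pair among these 5 genes was correlated after adjustment (10 pairs, exact permutation tests, lowest adjusted p = 0.327, with 1 pair at an unadjusted p below 0.05 by Pearson's r and 1 by Spearman's rho). The pair with the lowest p, Hsd17b11 and Sts, had r = -0.69 and rho = -0.64 (exact permutation p = 0.0327 and 0.0962, adjusted p = 0.327 and 0.287). It rested on 2 animals, since r was -0.024 without animals 5 and 6.

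Each gene was then set against all others by the correlation of deviations from the group mean over the 11 animals, which leaves the difference between groups out. Such correlations are descriptions, taken as the top 2 of 10713 genes on 11 animals that share their arrays. The gene closest to Hsd17b2 was Dbp, the PAR bZIP transcription factor whose transcript cycles with the circadian clock (r = 0.97). Dbp had 126, 137 and 120.07 in control animals 1, 2 and 9. In high-dosed animals it was 209 in animal 10, 744 in animal 3, 1011 in animal 8, 1346 in animal 4, 1378 in animal 11, 2261 in animal 5, 2483 in animal 2 and 2730.48 in animal 6. The 3 animals with the least Hsd17b2 were thus the 3 with the least Dbp, in the same order, and animals 2, 5 and 6 were the top 3 for both. Over the high-dosed animals alone rho was 0.90. Without animals 3 and 10, the farthest from the median, r of the deviations over the remaining animals, controls included, was 0.89. The other gene close to Hsd17b2 was Jade1 (r = 0.95, and 0.71 without those animals), which encodes a subunit of a histone acetyltransferase complex. It was likewise lowest of the high-dosed group in animal 10, at 1962. Its dimmer probe sets gave r = 0.49 and 0.68.

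The genes closest to Cyp17a1 were the kinase gene Stk24 (r = 0.95) and the mannosyltransferase gene Alg1 (r = 0.94). In both cases high-dosed animals 6 and 8 stood highest, at 1188 and 1229 for Stk24 and 656 and 668 for Alg1, while the other 6 ran up to 949 and 557. Without animals 6 and 8, and with the controls kept, the values of r fell to 0.77 and 0.70. The likeness to Cyp17a1 thus leaned on that pair of animals.

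Hsd17b12 was closest to Insig2, which retains the sterol sensor complex in the endoplasmic reticulum (r = 0.96). Insig2 split the high-dosed animals at the same place: animals 5, 3, 2 and 11 had 3965, 4178, 4339 and 4432, and animals 8, 4, 10 and 6 had 5870.05, 6011, 6019 and 6212. Controls 1, 2 and 9 had 6488, 5482 and 6135. The upper band of Insig2 was within the control range, unlike that of Hsd17b12. The second Insig2 probe set set the same 4 animals apart, from 2805 to 4256 against 5030.37 to 5459, with control 9 at 3717. Its r with Hsd17b12 was lower, at 0.76. As the animals form a pair of bands, r describes mainly the gap between them. Within the upper band the order of the animals was the same for Hsd17b12 and the brighter Insig2 probe set. It differed for the second probe set, where animal 8 was highest, at 5459. Within the lower band the order differed for both probe sets. The relation within bands was not tested. The ceramidase gene Acer2 came next (r = 0.92), with animals 3, 11, 2 and 5 at 286, 292, 324 and 332 and the others from 381 to 418.

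Hsd17b11 was closest to Rbp4, the retinol carrier (r = 0.94), and to Brd2 (r = 0.89). Sts was closest to the mitotic genes Bub1 (r = 0.94) and Ccnb2 (r = 0.92), both dim, with the control mean of Bub1 (7.23) under the filter value of 7.40.

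**Figure D2:**
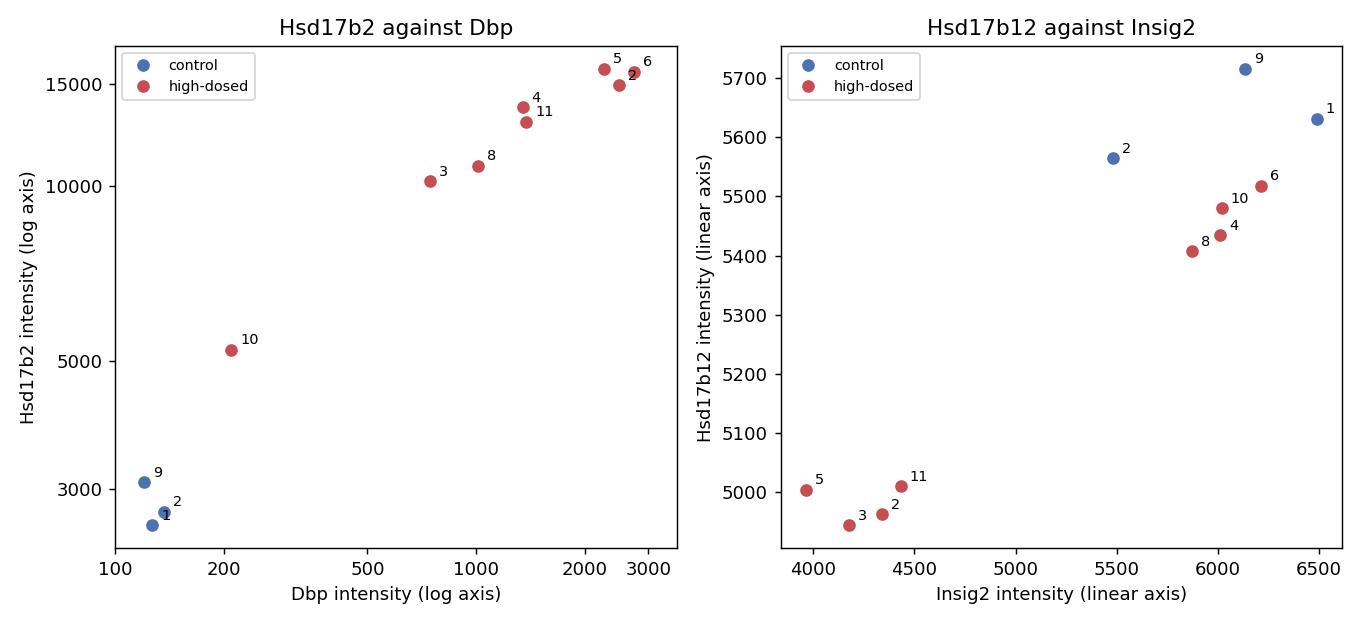
Left, Hsd17b2 against Dbp intensity on log axes; right, Hsd17b12 against Insig2 intensity on linear axes that do not start at 0; 1 point per animal labelled by its number, controls in blue and high-dosed animals in red. High-dosed animal 10 lay nearest to the controls on the left, and animals 2, 3, 5 and 11 formed a separate low band on the right.

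The remaining genes of the pathway were grouped by role, without the 7 genes above. Over all 13 lists together 7 of 120 tested genes were higher and 10 lower, where 7.91% of all genes were called higher and 2.74% lower. The lists include partners, carriers and growth hormone genes besides enzymes of steroids. One of the rises, that of Pbsn, passed the signal filter only through the high-dosed group, and 6 rises stood without it. The count leaned on the controls, with 7 called without control 1 and 10 without control 2.

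In the family of Hsd17b enzymes and related retinol dehydrogenases, 1 of 9 tested genes rose, none fell and 8 did not pass, with a median of 0.046. The rise was that of Hsd17b13, a lipid droplet enzyme close in sequence to Hsd17b11. It had 6903, 7123 and 7148 in controls 1, 2 and 9 and 7881 to 9595 in high-dosed animals, without overlap (0.29 ± 0.056, limma adjusted p = 0.00803, and 0.0541 without control 1). Its rise was thus far smaller than that of Hsd17b2. Hsd17b4 (-0.16), the peroxisomal enzyme of fatty acid oxidation, was named after its value was seen and did not pass (limma adjusted p = 0.12).

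Of 8 tested genes of steroid synthesis and its electron donors 1 rose and 7 did not pass (median -0.030). Hsd3b7, a bile acid synthesis enzyme rather than a hormone enzyme, had 2952, 3508 and 3809.6 in controls 1, 2 and 9 and 3381 to 5044 in high-dosed animals (0.41 ± 0.11, limma adjusted p = 0.0409). Animal 10, lowest again, fell within the control range, and the call was lost in 12 alternatives (highest adjusted p = 0.235). The partners that pass electrons to Cyp17a1, named after their values were seen, did not pass: Por was at 0.31 ± 0.17 and Cyb5a at -0.075 ± 0.043 (limma adjusted p = 0.281 and 0.304).

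Among 10 tested steroid reductases and 11-beta dehydrogenases 1 rose, 1 fell and 8 did not pass (median 0.014). Hsd11b1, which regenerates active glucocorticoid, rose (1.11 ± 0.26, limma adjusted p = 0.0183) and Hsd11b2, which inactivates it, fell by 1.46 ± 0.16 (limma adjusted p = 0.000339). Leaving out control 2 or 9 ended the Hsd11b1 call (adjusted p up to 0.0812), and its controls ran from 1216 to 3277. Its high-dosed animals ran from 2866 to 5956, so the groups overlapped. Akr1c1, also named after its values were seen, had a large difference that did not pass (-1.26 ± 0.47, limma adjusted p = 0.109), and control 2 alone stood at 3939.89 against 488 and 568.31 in controls 1 and 9.

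On the side of conjugation, 1 of 13 tested genes of sulfate transfer, release and transport fell and 12 did not pass (median -0.0021). Papss2, which makes the sulfate donor for sulfotransferases, had 5644, 5016 and 5594 in controls 1, 2 and 9 and 3901 to 4876 in high-dosed animals, without overlap (-0.35 ± 0.068, limma adjusted p = 0.00744, and 0.0542 without control 1). Of 8 tested genes of glucuronidation 2 rose and 6 did not pass (median 0.097, with 7 above 0). Ugp2, which makes the UDP-glucose from which the glucuronide donor is built, ran from 5448 to 5968 in controls and 6619.78 to 10342 in high-dosed animals (0.58 ± 0.11, limma adjusted p = 0.00684). Ugt2b1, a glucuronosyltransferase, ran from 6702 to 7945 in controls and 8599 to 11722 in high-dosed animals (0.41 ± 0.10, limma adjusted p = 0.0222). Neither overlapped between the groups, and leaving out control 1 or 2 ended the Ugt2b1 call (adjusted p up to 0.101).

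Of 15 tested cytochromes of steroid and drug hydroxylation 2 fell and 13 did not pass (median 0.010). Cyp3a9 fell by 1.46 ± 0.25 (limma adjusted p = 0.00408) and Cyp2c22 by 0.44 ± 0.12 (limma adjusted p = 0.0334, lost without control 1 or 9 and without high-dosed animals 8, 10 and 11). Of 11 tested steroid receptors, related orphan receptors and their chaperone partners none rose, 2 fell and 9 did not pass (median -0.079). Both falls were chaperones. Fkbp4, a co-chaperone of steroid receptors, had 3808, 3953 and 3197 in controls 1, 2 and 9 and 1735 to 2260.32 in high-dosed animals (-0.87 ± 0.087, limma adjusted p = 0.000313). Hsp90ab1 fell by 0.24 ± 0.060 (limma adjusted p = 0.0238), a call lost without control 1 or 2 and without high-dosed animals 8, 10 and 11. The glucocorticoid receptor gene Nr3c1, named after its value was seen, was at 0.15 ± 0.082 (limma adjusted p = 0.294). Of 16 tested coregulators 0 passed in limma's fit (median 0.017).

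**Figure D3:**
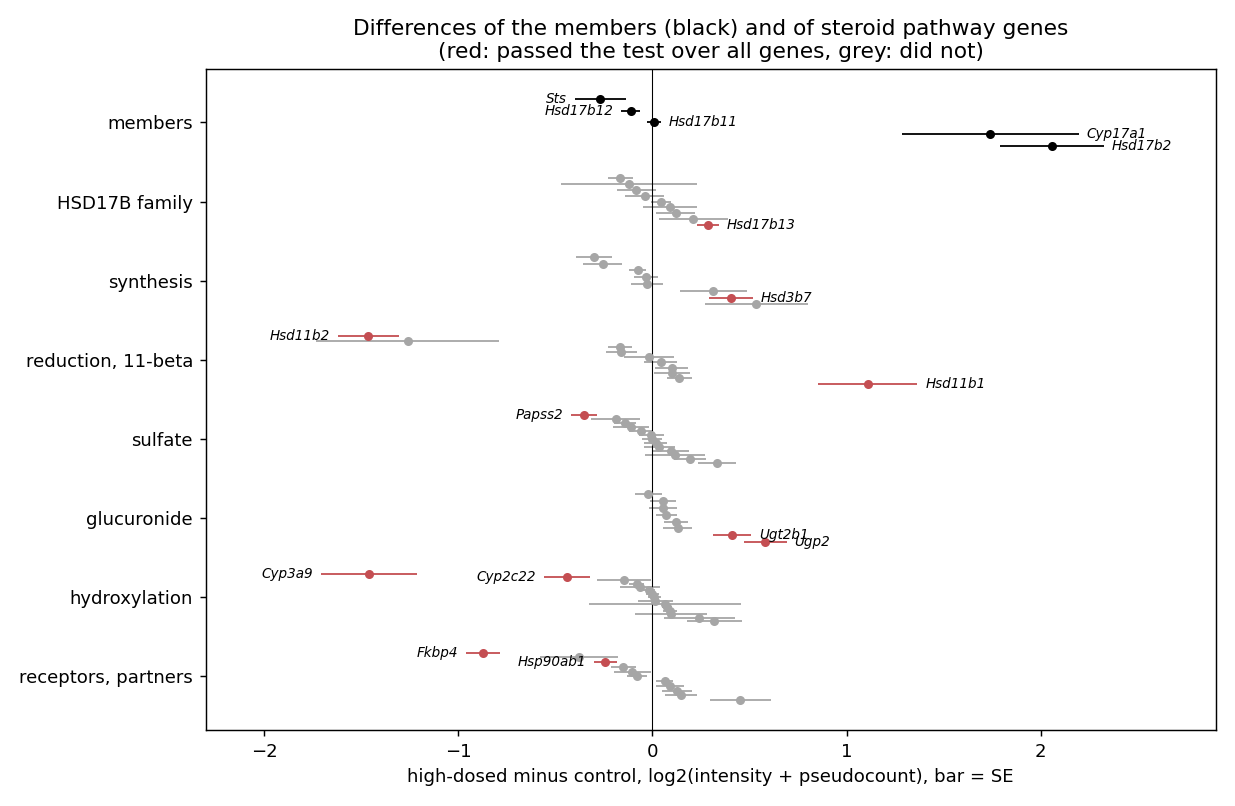
High-dosed minus control difference on the log2(intensity + pseudocount) scale with its SE, for the 5 described genes above the signal filter (black, no test) and for tested pathway genes in 7 of the lists by role (red, passed limma's test over all genes; grey, did not pass). Hsd17b2 at 2.06 and Cyp17a1 at 1.74 lay farther from 0 than any pathway gene plotted, but they were chosen with this contrast known. Pbsn, with a control level under the filter, is in a list that is not plotted.

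Markers of some other cell types differed between the groups, beside the 10.6% of all genes that were called. Summed over 5 measured cholangiocyte markers, intensity ran from 717 to 871 in controls and from 1064 to 1746 in high-dosed animals, with 1 marker called (Epcam) and 3 under the filter. Epcam, the brightest of them, had means of 445 in controls and 845 in high-dosed animals. Krt7 alone of the 5 was lower, at 65.8 and 63.6. Endothelial markers, 6 in all, summed to 9282 to 10282 in controls and 10464 to 11584 in high-dosed animals, with 3 called, and 6 macrophage markers to 11376 to 15464 and 14890.2 to 20514, with 1 called and with overlap of the groups. The sums of stellate markers (4047 to 4432 and 3932 to 4645), lymphocyte markers (888 to 1031 and 858 to 1276) and blood cell markers (8789 to 13193 and 9702 to 19552) overlapped too, with 0 of 5, 0 of 2 and 0 of 3 tested markers called by limma. Such sums follow their brightest genes. Lyve1 among the endothelial markers was lower in high-dosed animals (mean 2482 against 2693), as was Cd163 among the macrophage markers (1099 against 1285). In each of these lists the other 5 markers were higher. Krt7, Lyve1 and Cd163 were named after their values were seen. The part of these cell types in the differences of Hsd17b2 and Cyp17a1 was not tested. Hepatocyte markers summed to 190827 to 193865 in controls and to 188720 to 201207 in high-dosed animals. Of 11 tested hepatocyte markers limma called 1 higher and 1 lower, and 9 were not called. Their single differences ran from -0.35 to 0.35, so the level sum does not mean that each marker was unchanged.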

How the data were processed

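The deposited table gave probe set intensities of 11 arrays on a linear scale, with a lowest value of 1. MAS5 was named in the submitters' processing notes, with no role; the scaling between arrays was not given in the sources used here, and values were used as the authors deposited them. The deposited intensity was transformed as log2(intensity + 55.26). The 57 control probe sets and those below a mean log2 value of 7.40, the 40th percentile, were removed, leaving 18625 probe sets and 10714 genes with a single symbol. Limma 3.58.1 in R 4.3.3 fitted high-dosed against control with an intensity trend, two-sided, with Benjamini-Hochberg adjustment over all genes and a call below 0.05; the code was checked on simulated data. Correlations used exact permutation tests (scipy 1.17.1). The genes and all gene lists were chosen with earlier results of these data known. From each list up to 6 called genes were named, and for each of the described genes the 2 nearest by correlation; any other gene is marked where it appears. The number of arrays limits the precision. Alternatives were another pseudocount, filter, scaling or variance model, each array left out, 3 animals left out, an animal number block and all probe sets.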

Additional observations from a re-analysis of the deposited data

Results flagged for a closer look

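Of 23 genes examined among the 8 high-dosed animals, 2 had an animal whose distance from its nearest neighbour was a large part of the group's range (Dixon's ratio above 0.526); chance gives about 1 in 20. For Hsd17b2 high-dosed animal 10 was the lowest, with a ratio of 0.599. For Sts high-dosed animal 6 was the lowest, with a ratio of 0.653. That animal was also the second highest for Cyp17a1.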

How the results depend on the processing

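No paired analysis was possible because the labels give no pairing of animals. Number 2 occurs in both groups, for different rats on separate arrays. A fit with a term that sets animals numbered from 8 up apart from the rest called 1520 genes and 23 pathway genes. The differences of Hsd17b2, Cyp17a1, Hsd17b12 and Sts kept their sign in all alternatives, and that of Hsd17b11 turned. Esr1 was fitted only without a filter. Limma called 1141 genes, 731 after median centring, 715 without high-dosed animals 8, 10 and 11, and from 323 to 1410 with 1 array left out; the count of 323 came without control 1. Among pathway genes it called 17, and from 7 to 20 with 1 array left out. The share of calls that were higher was 74.2%, 63.9% after quantile normalization and 64.7% after median centring. Of 10 genes named as most alike, 3 were among the top 2 over the high-dosed animals alone. No pair of the described genes was called by Spearman's rho or with 2 animals left out (0 of 10 pairs in each, with 1 at an unadjusted p below 0.05 by rho). The cause of these changes was not tested. Signal over background is unknown without detection calls.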

Other observations

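Genes known for a sex bias in rat liver, a readout of growth hormone rhythm and sex steroids, were also measured. As background for the counts here and in the next paragraph, 7.91% of all genes were called higher and 2.74% lower. Of 12 tested male-biased genes 0 passed in limma's fit (median 0.0015), and several were dim in every animal, so that little can be read from them. Cyp2c11, the main male cytochrome, ran from 180 to 347 over the 11 animals (0.098 ± 0.19, limma adjusted p = 0.781), Cyp2c13 from 179 to 368, Cyp3a2 from 130 to 267 and Mup5 from 122 to 258. These and Cyp2c12 were named after their values were seen. Of 8 tested female-biased genes 3 fell and 5 did not pass (median -0.10). Besides Cyp3a9 these were Prlr, the prolactin receptor (-0.49 ± 0.10, limma adjusted p = 0.0109), and A1bg, a secreted plasma protein (-0.49 ± 0.12, limma adjusted p = 0.0205). The Prlr call was lost without control 2 (adjusted p = 0.0544) and the A1bg call without control 1 or 2 (adjusted p up to 0.12). Cyp2c12, the main female cytochrome, ran from 17497 to 19303, with a difference of -0.0011 ± 0.033 (limma adjusted p = 0.988).

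Of 14 tested growth hormone signalling genes 2 fell slightly, Igf1 (-0.13 ± 0.037, limma adjusted p = 0.0419) and Ghr (-0.14 ± 0.042, limma adjusted p = 0.0461), both lost in 15 alternatives, and 12 did not pass. The median of the 14 was -0.12, with 2 above 0, beside a median of 0.017 over all genes. Of 7 tested androgen and estrogen targets 1 (Igf1) fell. Pbsn was called as higher, but it passed the signal filter only through the high-dosed group, so the call says little. This gene encodes probasin, an androgen-regulated secreted protein. It ran from 14.4 to 33.2 in controls, was 51.6 in high-dosed animal 10 and ran from 223 to 833 in the other high-dosed animals. The size of its rise is therefore not given. Of 6 tested steroid carriers and plasma proteins 1 rose, Apoa1 (0.35 ± 0.078, limma adjusted p = 0.0153, lost without control 1 or 9).

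High-dosed animal 10, picked out after its values were seen, was the high-dosed animal nearest to controls for Hsd17b2, Dbp, Jade1, Pbsn, Ugp2, Hsd3b7, Hsd11b2, Cyp3a9, A1bg and Igf1. It was not the nearest for Cyp17a1, Hsd17b13, Papss2, Prlr, Fkbp4, Hsp90ab1, Cyp2c22, Ghr or Apoa1. For Ugt2b1 (11722) and Hsd11b1 (5956) it was the farthest from them.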
